A study of Mus musculus with 2 samples.

Results

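Isolated shared 5hmC peaks are short, single places of enriched 5-hydroxymethylcytosine signal. They were called in mast cells with and without TET2 and stood far from any other called peak. A peak of the Tet2+/+ library on an autosome was included when it was under 600 bp wide, overlapped a peak of the Tet2-/- library by at least 1 bp, and overlapped no peak called when the libraries were compared directly. In addition, no other Tet2+/+ summit lay within 200 kb, and no Tet2-/- summit other than that of the overlapping peak. There were 126 such peaks among 18160 Tet2+/+ peaks. The members were thus chosen by the peak calls of both libraries and by peak position, so presence in both, short width, isolation and the lack of a direct call are how the peaks were chosen and are no findings.

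The cells were bone marrow-derived mast cells, primary mast cells grown from the bone marrow of C57BL/6 mice aged 6 to 12 weeks with interleukin-3 as survival factor. The groups were Tet2+/+ and Tet2-/-, with no treatment. After 4 weeks of differentiation, cells positive for FcεRIα, which binds IgE, and for Kit, which binds stem cell factor, were sorted in both groups, because Tet2-/- cultures differentiated less well, per the labels. There was 1 library per genotype, from cells of 2 animals, and pooling of their DNA is not stated. There is thus no spread between replicates, and genotypes could not be tested across samples. All intervals below are 95% intervals. Those of fragment counts and of single ratios cover counting error, those of shares and medians cover the sampling of peaks taken as independent, and none covers variation between animals or cultures. No expression was measured, so the cell type could not be checked against markers.

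TET enzymes oxidise 5-methylcytosine in DNA to 5hmC, an intermediate on the way to removal of the methyl group that can also persist as a mark of its own. TET2 is a member of this family with a known role in blood cells, and related TET enzymes carry out the same reaction. In many tissues 5hmC is known to lie in gene bodies and at distal regulatory elements, where neighbouring sites often carry it together. In the assay used here, 5hmC was tagged with a modified glucose and biotin, and tagged fragments were pulled down and sequenced. A peak therefore marks a place where more fragments were captured than in its surroundings. Its height is the number of fragments that cover its summit. No input library is among the samples, so capture of 5hmC could not be told apart from piles of fragments at repeated sequence.

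The peak lists are in the mm9 build. No mm9 genome, repeat mask or gene annotation was used here, so the peaks are named by their coordinates, their base sequence is not shown, and their genes were not analysed. The lists hold no read totals. The fragments at each summit and the fragments expected there were worked back from the fold and p-value that the authors' peak caller gave. The Tet2-/- library was 1.18 times as deep as the Tet2+/+ library by its background, 1.72 against 1.46 expected fragments. Ratios of Tet2-/- to Tet2+/+ coverage are scaled for this depth.

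The 126 peaks were found step by step. Of 17882 autosomal Tet2+/+ peaks, 16843 were under 600 bp wide, 9931 of these overlapped a Tet2-/- peak, and 8992 of these overlapped no directly called peak. Isolation by 200 kb kept 1.40% (1.17 to 1.67) of the 8992. The other 8866, which had a neighbour within 200 kb, are used below as neighboured shared peaks. At the edge of the rule, the 5 isolated peaks nearest to the limit had their next summit at 200.1 to 212.0 kb, with 11 to 25 fragments in Tet2+/+ and 15 to 31 in Tet2-/-. The 5 peaks just outside it had their next summit at 191.9 to 199.8 kb, with 12 to 26 and 13 to 26 fragments.

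Isolated shared peaks were within 1 fragment of shared peaks with neighbours in median height. The median summit held 17 fragments in Tet2+/+ cells (15 to 17, range 9 to 138) and 18.5 in Tet2-/- cells (17 to 20, range 9 to 151). Neighboured shared peaks had medians of 18 and 19 fragments. Over its own surroundings, an isolated peak was enriched by a median fold of 6.23 in Tet2+/+ (5.86 to 6.85) and 6.50 in Tet2-/- (5.88 to 6.98), as the authors' peak caller gave it. The medians for neighboured peaks were 5.69 (5.69 to 5.73) and 5.86 (5.82 to 5.88). Among neighboured peaks, the median Tet2+/+ fold rose with distance, from 5.10 within 5 kb of another summit to 6.12 (6.04 to 6.34) at 100 to 200 kb. The latter interval overlaps that of isolated peaks, so the higher fold is not particular to them. The deposited −log10 q, a measure of significance, had a median of 8.24 in Tet2+/+ and 8.95 in Tet2-/- for isolated peaks. A −log10 q of at least 10 in both libraries was reached by 31 of 126 isolated peaks (24.6%, 17.4 to 33.1) and by 20.6% of neighboured peaks (19.8 to 21.5).

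The fold divides the summit by what is expected locally, and that local level differed between the kinds of peak. The expected coverage was read as the larger of the library background and the mean coverage of the surrounding 10 kb. This reading, on which the window counts below rest, is inferred from the steps of the deposited values and is not stated in the sources used here. Its median was 1.74 fragments at isolated peaks (1.68 to 1.82) and 2.20 at neighboured ones (2.18 to 2.22) in Tet2+/+. In Tet2-/- the medians were 1.98 (1.92 to 2.12) and 2.34 (2.32 to 2.36). The surroundings of 99 of 126 isolated peaks (78.6%, 70.4 to 85.4) were above the Tet2+/+ background, against 92.5% of neighboured peaks (92.0 to 93.1). In Tet2-/- the shares were 70.6% (61.9 to 78.4) and 87.2% (86.4 to 87.8). Neighboured peaks with their nearest other summit at 100 to 200 kb had a like Tet2+/+ level, with a median of 1.80 expected fragments (1.74 to 1.86). Of these 291 peaks, 80.4% (75.4 to 84.8) had surroundings above the Tet2+/+ background. Both intervals overlap those of isolated peaks. A lower local level away from other peaks follows in part from the rule, which leaves no other called summit in the window.

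The first question was how alike the genotypes were at these peaks. Depth-scaled Tet2-/- coverage was a median of 0.965 of Tet2+/+ coverage (0.909 to 1.02), so the interval of the median includes equal coverage. It was below 1 at 73 of 126 peaks and above 1 at 53. The neighboured shared peaks had a median of 0.905 (0.901 to 0.909), with 63.5% below 1. This shift, −0.14 on the log2 scale, is that of neighboured narrow shared peaks without a direct call. With 1 library per genotype, genotype and library cannot be told apart as its source. Isolated peaks had a median of −0.05 on the same scale. Measured against the median of all 8992 shared peaks, isolated peaks stood at 1.07 (1.004 to 1.125), an interval just above 1. This scaling was chosen after seeing the data. The rule dropped peaks with a direct call, so these ratios describe the chosen peaks and do not show that TET2 is without effect there. Depth was read from the background of each library, so a change shared by background and peaks would be scaled away. A ratio near 1 therefore means like coverage relative to the library, and not a like amount of the captured mark per cell. A genome-wide loss of the mark was not tested.

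**Figure D1:**
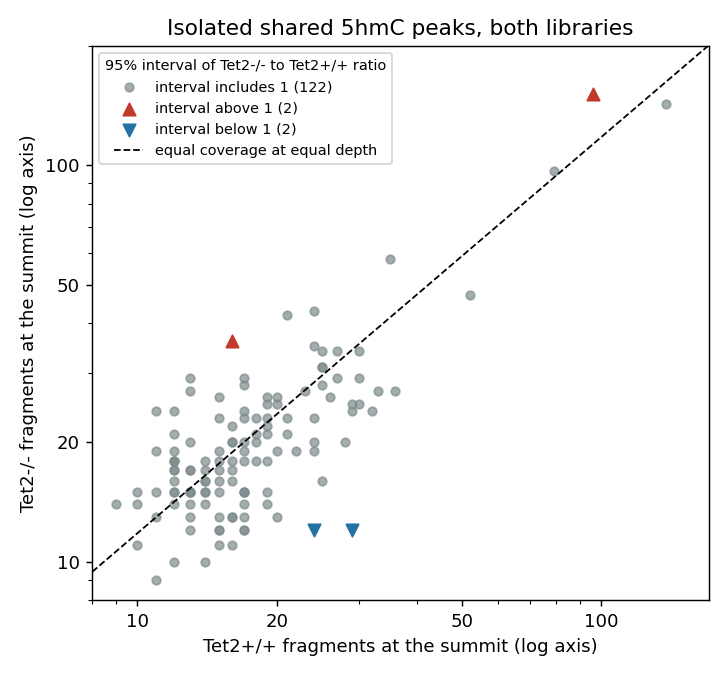
Fragments at the summit of each of the 126 isolated shared peaks in the Tet2+/+ library (x, log axis) and the Tet2-/- library (y, log axis), with the line of equal coverage at equal depth. Colour and shape show whether the 95% exact interval of the depth-scaled ratio lies above 1 (2 peaks), below 1 (2 peaks) or includes 1 (122 peaks).

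Counting error covers most single ratios. The interval of the ratio included 1 at 122 of the 126 peaks, lay above 1 at 2 (1.59%) and below 1 at 2 (1.59%). Over all 8992 shared peaks of the same kind the shares were 0.556% above and 1.06% below, and nothing is read from this comparison because the rule used the same contrast. Ratios ran from 0.351 to 1.91. Their SD was 0.44 on the log2 scale, while counting error alone would give 0.49 at these fragment numbers. The rule left out peaks called in only 1 library or called directly, which narrows the spread, so nothing is read from this SD either. The heights of both libraries went together across the 126 peaks (Pearson r = 0.762 for log2 fragments, Spearman rho = 0.574). Peaks in both libraries share their position and mappability, they are not replicates, and the few very high peaks raise Pearson's r. The neighboured peaks gave 0.671 and 0.594 over 8866 peaks.

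The isolated peak with the most Tet2+/+ fragments lay on chromosome 4 at 70039013 to 70039434. It had 138 fragments in Tet2+/+ (116 to 163) and 143 in Tet2-/- (121 to 168), a ratio of 0.879 (0.691 to 1.12). Its summits were 2 bp apart, and the nearest other summit was 311 kb away. The 10 kb around it held 254 fragments in Tet2+/+ and 248 in Tet2-/-, so that 54.3% of the Tet2+/+ fragments in the window covered the summit. Scaled for depth, the Tet2-/- window held 0.828 of the Tet2+/+ fragments, while the interval of the summit ratio included 1.

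The peak ranked next, at 36621488 to 36622015 of chromosome 17, reached 96 Tet2+/+ fragments (77.8 to 117) and 151 in Tet2-/- (128 to 177), the most of any isolated peak in that library. Its ratio of 1.33 (1.03 to 1.74) is one of the pair whose interval lay above 1, although no direct call overlapped it. Its nearest other summit, 222 kb away, belonged to another isolated shared peak, on chromosome 17 at 36398878 to 36399454. That neighbour had 32 and 24 fragments and a ratio of 0.636 (0.358 to 1.11). The 2 closest isolated peaks of this stretch thus differed from equal coverage in opposite directions, 1 of them beyond its counting interval.

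Chromosome 3 held the peaks ranked 3 and 4. At 56379248 to 56379802, 79 Tet2+/+ fragments (62.5 to 98.5) stood beside 97 in Tet2-/- (78.7 to 118), a ratio of 1.04 (0.766 to 1.42), with 840 kb to the nearest other summit. At 8246228 to 8246691, there were 52 Tet2+/+ fragments (38.8 to 68.2) and 47 in Tet2-/- (34.5 to 62.5), a ratio of 0.766 (0.505 to 1.16). The summits of these peaks were 1 and 0 bp apart between the libraries. The intervals of both ratios included 1.

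The other 6 of the 10 isolated peaks of highest Tet2+/+ −log10 q had 29 to 36 fragments in Tet2+/+ and 12 to 58 in Tet2-/-. On chromosome 17 at 19317074 to 19317607 there were 35 and 58 fragments, a ratio of 1.41 (0.908 to 2.20). On chromosome 15 at 76975021 to 76975413 there were 36 and 27, a ratio of 0.636 (0.371 to 1.08). On chromosome 10 at 111812623 to 111812983 there were 30 and 25, a ratio of 0.707 (0.399 to 1.24). These ratios lay on both sides of 1 and each interval included it. On chromosome 8 at 4621790 to 4622183 there were 30 and 34, a ratio of 0.961 (0.571 to 1.63). On chromosome 1 at 48938262 to 48938591 there were 29 and 24, a ratio of 0.702 (0.391 to 1.25), at a place 2049 kb from any other summit. On chromosome 1 at 109440537 to 109440837 there were 29 fragments in Tet2+/+ (19.4 to 41.6) and 12 in Tet2-/- (6.20 to 21.0). This last ratio, 0.351 (0.163 to 0.709), was the lowest of all 126, and the Tet2-/- −log10 q there was 4.41. A ranking by Tet2-/- −log10 q would bring in other peaks, led by chromosome 9 at 83988594 to 83988980 with 43 Tet2-/- fragments and a −log10 q of 29.7, ranked 32 in Tet2+/+.

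**Figure D2:**
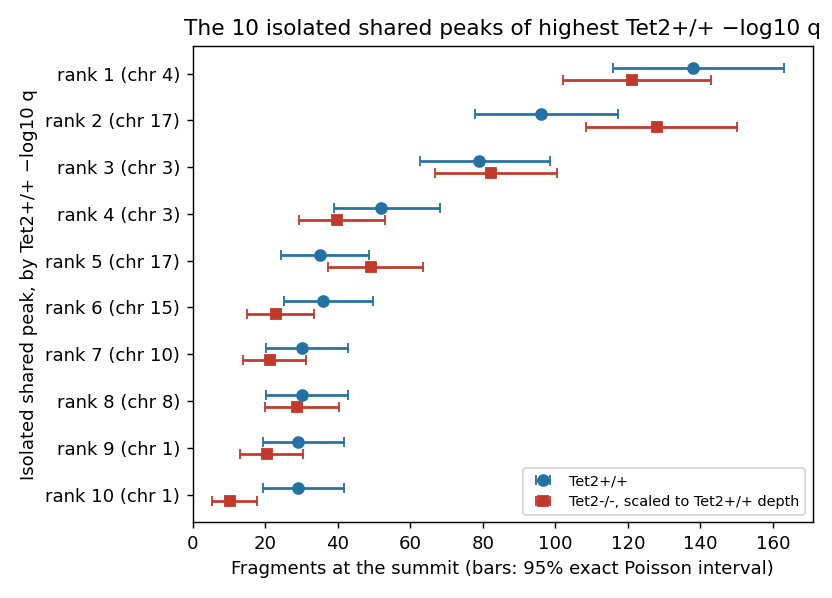
Fragments at the summit (x) of the 10 isolated shared peaks of highest Tet2+/+ −log10 q (y, by rank and chromosome), in Tet2+/+ and, scaled to Tet2+/+ depth, in Tet2-/- cells, with 95% exact Poisson intervals. The first 3 peaks stand at 79 to 138 Tet2+/+ fragments, and only the peak ranked 10 has intervals that do not overlap.

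The peaks with the least Tet2-/- coverage relative to Tet2+/+ were taken next. After the one on chromosome 1 came chromosome 19 at 6686826 to 6687176, with 24 Tet2+/+ and 12 Tet2-/- fragments and a ratio of 0.424 (0.193 to 0.882). Next were chromosome 8 at 117232719 to 117233166 (25 and 16 fragments), chromosome 14 at 11985962 to 11986338 (20 and 13) and chromosome 1 at 58507270 to 58507623 (16 and 11). The ratios of these 3 were 0.543 to 0.583, and their intervals included 1. All 5 peaks had 11 to 16 fragments in Tet2-/- cells, below the median of 18.5 for isolated peaks.

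The peaks with the most Tet2-/- coverage relative to Tet2+/+ were led by chromosome 17 at 18001422 to 18001778, with 16 Tet2+/+ fragments (9.15 to 26.0) and 36 in Tet2-/- (25.2 to 49.8). Its ratio was 1.91 (1.03 to 3.68). It was followed by chromosome 4 at 100198125 to 100198350 (13 and 29 fragments), chromosome 3 at 63793222 to 63793467 (11 and 24), chromosome 17 at 9225116 to 9225652 (13 and 27) and chromosome 9 at 82854969 to 82855251 (21 and 42). The ratios of these 4 were 1.70 to 1.89 and their intervals included 1. Peaks at the ends of a ranking were selected on the same counts that give their ratios, which are therefore a description only.

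Leaving the direct calls in shows what the rule removed. Before that step, 138 isolated shared narrow peaks were found, and 12 of them (8.70%, 4.57 to 14.7) overlapped a direct call. Among all narrow shared autosomal peaks the share was 9.46%. Of the 12, 10 were called higher in Tet2+/+ and 2 higher in Tet2-/-. Among those higher in Tet2+/+, the lowest ratio was 0.383 (0.188 to 0.741), on chromosome 16 at 5062471 to 5063018, where Tet2-/- cells kept 14 fragments against 31. The pair higher in Tet2-/- was chromosome 1 at 92496491 to 92496743 (13 Tet2+/+ and 32 Tet2-/- fragments) and chromosome 2 at 27784021 to 27784520 (16 and 33).

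The second question was how often a lone peak of one genotype was found in the other. Here a lone peak is any autosomal peak with no other summit of either library within 200 kb, apart from an overlapping partner, whatever its width or direct calls. Of 272 lone Tet2+/+ peaks, 151 (55.5%, 49.4 to 61.5) overlapped a Tet2-/- peak, against 61.1% (60.4 to 61.8) of 17610 peaks with neighbours. Of 292 lone Tet2-/- peaks, 150 (51.4%, 45.5 to 57.2) overlapped a Tet2+/+ peak, against 66.2% (65.5 to 66.9) of 16253. The intervals overlap for Tet2+/+ peaks and do not for Tet2-/- peaks.

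Higher peaks were shared more often in both libraries. Sharing requires a call in the other library, so low peaks may be missed there more easily. How much of the rise with height follows from this was not tested. Of lone Tet2+/+ peaks with at most 12 fragments, 22 of 85 (25.9%, 17.0 to 36.5) were shared. Of those with 23 to 30 fragments it was 30 of 33 (90.9%, 75.7 to 98.1), and above 30 fragments it was 21 of 21 (83.9 to 100). At like heights, lone and neighboured Tet2+/+ peaks had overlapping intervals in all 6 classes. For Tet2-/- peaks the intervals did not overlap at 12 or fewer fragments, where 23.4% of lone peaks (13.8 to 35.7) and 38.3% of neighboured peaks (36.2 to 40.5) were shared. Nor did they at 13 to 15 fragments, with 36.7% (26.1 to 48.3) and 52.4% (50.8 to 54.0). In the classes from 16 fragments up the intervals overlapped. Lone unshared peaks were low, with a median of 12 fragments in Tet2+/+ and 13 in Tet2-/-, against 17 and 19 in lone shared peaks. Peaks with neighbours differed likewise, with medians of 14 and 15 fragments in unshared and 19 and 20 in shared peaks.

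**Figure D3:**
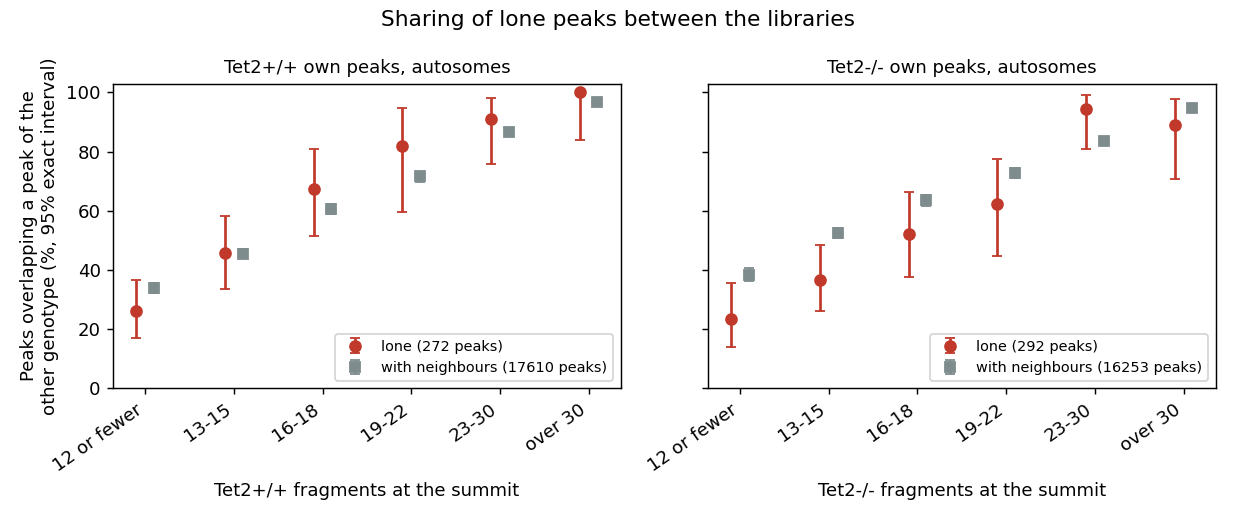
Share of autosomal peaks of each library (y, percent with 95% exact intervals) that overlap a peak of the other library, by fragments at the summit (x), for lone peaks and for peaks with neighbours. Sharing of lone Tet2+/+ peaks goes from 25.9% at 12 or fewer fragments to 21 of 21 above 30, and lone Tet2-/- peaks lie below neighboured ones in the lowest 2 classes.

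For direct calls, the interval at lone peaks included the share over all autosomal peaks in both genotypes. A peak called higher in Tet2+/+ overlapped 38 of 272 lone Tet2+/+ peaks (14.0%, 10.1 to 18.7), where the share over all autosomal Tet2+/+ peaks was 13.9%. A peak called higher in Tet2-/- overlapped 9 of 292 lone Tet2-/- peaks (3.08%, 1.42 to 5.77), where the share over all autosomal Tet2-/- peaks was 2.80%. Most direct calls at lone Tet2+/+ peaks were at peaks without a partner: 25 of 121 unshared (20.7%, 13.8 to 29.0) and 13 of 151 shared ones (8.61%, 4.66 to 14.3). Peaks with neighbours had like shares, 21.2% (20.2 to 22.2) of unshared and 9.33% (8.79 to 9.90) of shared peaks.

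The third question was whether distance itself went with the difference between genotypes. The 8992 shared peaks were ordered by the distance to their nearest other summit. The median ratio was 0.906 (0.898 to 0.921) for 2216 peaks with a neighbour within 5 kb, 0.901 at 5 to 20 kb, 0.909 at 20 to 50 kb, 0.901 at 50 to 100 kb and 0.909 (0.887 to 0.961) for 291 peaks at 100 to 200 kb. The isolated peaks, at 0.965 (0.909 to 1.02), had the highest median of the 6 classes, but their interval meets or overlaps that of each other class. Median height was lower at greater distance: the Tet2+/+ summit had 20 fragments (19 to 20) within 5 kb of a neighbour, 16 (16 to 17) at 100 to 200 kb and 17 (15 to 17) at isolated peaks. Median expected coverage was 3.02 fragments in the nearest class, 1.80 (1.74 to 1.86) at 100 to 200 kb and 1.74 (1.68 to 1.82) at isolated peaks.

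**Figure D4:**
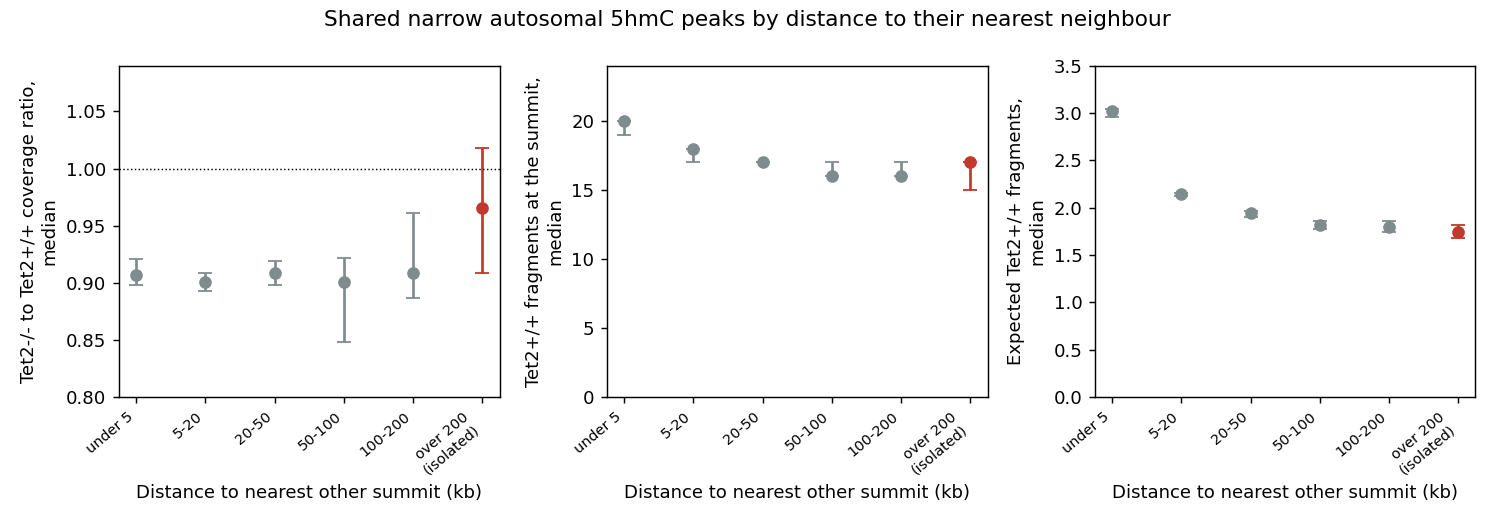
Median Tet2-/- to Tet2+/+ coverage ratio, Tet2+/+ fragments at the summit and expected Tet2+/+ fragments (y, with 95% order-statistic intervals) of 8992 shared narrow autosomal peaks, by distance to the nearest other summit in kb (x). Isolated peaks are in the last class, with a ratio of 0.965, 17 fragments and 1.74 expected fragments; the ratio axis does not start at 0.

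Among the isolated peaks, 48 had their next summit at 200 to 300 kb, with a median ratio of 0.909 (0.806 to 1.05). For 35 peaks at 300 to 500 kb it was 0.969 (0.848 to 1.10), for 28 at 500 kb to 1 Mb 0.984 (0.820 to 1.06), and for 15 beyond 1 Mb 1.05 (0.961 to 1.15). The medians were in the order of distance, but all 4 intervals overlap. Median heights in these classes were 16 to 17 Tet2+/+ and 17 to 23 Tet2-/- fragments. Divided by summed fragments instead, the 42 lowest, 42 middle and 42 highest peaks had median ratios of 0.951, 0.951 and 1.01, again with overlapping intervals.

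The 5 most remote peaks were of ordinary height. The one farthest from any other summit, 3132 kb, lay on chromosome 6 at 77638833 to 77639202, with 13 Tet2+/+ and 15 Tet2-/- fragments. Next were chromosome 3 at 4743629 to 4743835 (17 and 23 fragments, 2770 kb) and chromosome 1 at 26744432 to 26744781 (15 and 17, 2625 kb). Chromosome 5 at 60991366 to 60991775 (19 and 22, 2289 kb) and chromosome 7 at 59240992 to 59241325 (20 and 25, 2161 kb) completed the set. Their ratios were 0.961 to 1.15, and the summits of the libraries were 6 to 60 bp apart. Every one of these 5 ratios had an interval that included 1.

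Summits of the genotypes fell close together. The median distance between the Tet2+/+ and Tet2-/- summit was 36 bp at isolated peaks (26 to 51) and 50 bp at neighboured ones (48 to 52). Summits were within 10 bp at 31 of 126 isolated peaks (24.6%, 17.4 to 33.1), against 12.7% of neighboured peaks (12.0 to 13.4), and these intervals do not overlap. Within 50 bp the shares were 57.9% (48.8 to 66.7) and 50.3% (49.3 to 51.4). Within 100 bp the shares were 81.0% (73.0 to 87.4) and 76.2% (75.3 to 77.1). At both of these wider distances the intervals overlap. Overlap with a partner is part of the rule for both kinds of peak, which bounds these distances. Each isolated peak overlapped exactly 1 Tet2-/- peak. Median width was 347.5 bp in Tet2+/+ and 352 bp in Tet2-/-, and the Tet2-/- peak was the wider at 62 of 126. The largest summit distance, 565 bp, was on chromosome 7 at 144645353 to 144645662.

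One isolated peak stood in rich surroundings although no other peak was called there, and it was picked out after its values were seen. On chromosome 1 at 90157988 to 90158404, the 10 kb around the summit held 413 fragments in Tet2+/+ and 391 in Tet2-/-, while the summit had 33 and 27. The summit thus took 7.99% of the Tet2+/+ fragments in its window, the lowest share of the 126 peaks. The peak on chromosome 4 described first had the highest, 54.3%. Scaled for depth, the Tet2-/- window of the former held 0.803 of the Tet2+/+ fragments (0.697 to 0.924). That of the latter held 0.828 (0.692 to 0.990). Both intervals lie below 1 but include 0.905, the median summit ratio of neighboured shared peaks. Window intervals of other isolated peaks also excluded 1, in either direction. Examples are 1.27 (1.05 to 1.55) on chromosome 17 at 36621488 and 0.648 (0.490 to 0.855) on chromosome 1 at 58507270. No loss particular to these windows is read from the values. Whether repeated sequence contributes to either was not tested, since no repeat mask was used.

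Isolated shared peaks were found on all 19 autosomes, from 1 on chromosome 16 to 13 on chromosome 5. Over the span between the first and last peak of each chromosome, there were 5.26 per 100 Mb (4.38 to 6.26) in all. Chromosomes 9 and 5 had the most, 9.09 (4.54 to 16.3) and 8.75 per 100 Mb. Chromosomes 16 and 12 had the fewest, 1.05 (0.0267 to 5.87) and 1.71 (0.207 to 6.16). The interval of each of these 4 includes the value of all autosomes together. As a share of the shared narrow peaks of a chromosome, they ran from 0.272% on chromosome 16 to 2.40% (1.28 to 4.07) on chromosome 5.

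**Figure D5:**
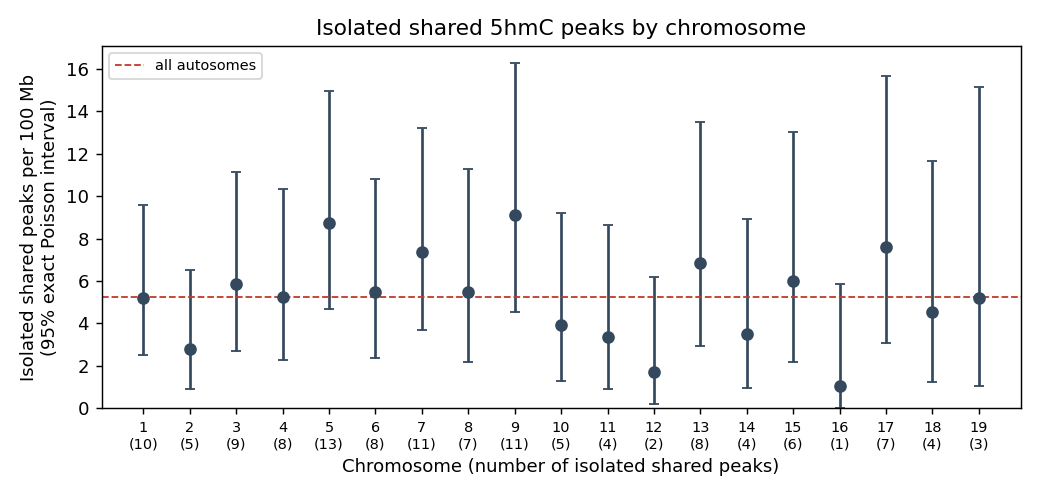
Isolated shared peaks per 100 Mb of each autosome's span of peaks (y, with 95% exact Poisson intervals) by chromosome (x, with their number); the dashed line is the value of all autosomes, 5.26. Chromosomes 5 and 9 stand highest and chromosomes 12 and 16 lowest, with intervals that include the line.

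The wider neighbourhood was counted beyond the 200 kb that the rule empties. Between 200 kb and 1 Mb to either side, the median isolated peak had 6.5 other Tet2+/+ peaks (6 to 9, range 0 to 40), against 17 (16 to 17) around neighboured shared peaks. The groups were split by the distance to their nearest summit, so part of this difference may follow from that choice. No other Tet2+/+ peak lay within 1 Mb of 20 isolated peaks (15.9%), or within 2 Mb of 8. The nearest other summit was 340 kb away at the median, over 500 kb for 43 peaks, over 1 Mb for 15 and over 2 Mb for 6. It was a Tet2-/- summit for 71 peaks, a Tet2+/+ summit for 52, and 1 of each at equal distance for 3. Another isolated shared peak lay within 1 Mb of 22 of the 126.

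No directly called peak lay within 200 kb of any isolated peak (0 of 126 peaks, which allows a share of up to 2.38%). By its wording the rule excluded only those that overlapped the peak, but most direct calls fall at called peaks, which the rule keeps 200 kb away. The nearest direct call was 909 kb away at the median, within 500 kb for 35 peaks and within 1 Mb for 68. It was one called higher in Tet2+/+ for 101 of the 126 peaks (80.2%, 72.1 to 86.7). Calls higher in Tet2+/+ made up 85.3% (84.0 to 86.5) of all direct calls, a share within that interval.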

How the data were processed

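The authors deposited 4 peak lists: the own peaks of either library, and the peaks of either library called with the other as control, per the peak names. Bowtie2, MACS2 and mm9 are named per the submitters' processing notes, without versions, thresholds or options. Per the file columns, the deposited values are the score, the fold (a ratio) at the summit, and the −log10 of p and of q. Intervals treat peaks and fragments as independent, which neighbours and amplification copies are not.

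Whole fragments n and expected fragments were solved from fold = (n + 1) / (expected + 1) and the Poisson tail p. Every own peak met the deposited −log10 p within 0.001. Expected values above background were whole fragments of 200 bp in 10 kb (100% of peaks in both lists, within 0.05 fragments). This step was tested on simulated data. A window at background is given as its upper limit. Shares have exact Clopper-Pearson, counts exact Poisson, ratios conditional binomial and medians order-statistic intervals. A count of 0 allows up to 3 counts. Tools were scipy 1.17.1, pandas 2.3.3, numpy 2.4.6 and Python 3.11.15. Starts were made 1-based.

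Named peaks are the 10 of highest −log10 q, the 5 highest and 5 lowest ratios, the 5 farthest from other summits and 5 at either side of the limit. Members and lists were chosen with earlier results of these data known. Gene lists and sequence features need mm9 references and were not analysed.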

Additional observations from a re-analysis of the deposited data

How the results depend on the processing

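The number of isolated shared peaks, 126, depended on the distance asked for: 417 peaks had no other summit within 100 kb and 43 had none within 500 kb. It stayed within 1.5 times under the other settings tried: 136 without a width limit, 115 with reciprocal overlap of at least 50%, 88 with −log10 q of at least 5 in both libraries, 138 with X and Y, and 126 with no direct call within 200 kb. The last of these settings could remove no peak, because no isolated peak had a direct call within 200 kb. The median coverage ratio, 0.965, was 1.14 (1.07 to 1.20) without scaling for depth. It was 1.07 (1.004 to 1.125) relative to all shared peaks of the same kind, a setting chosen after seeing the data. Both shifts follow from dividing all ratios by 1 number, and the side of 1 on which the median falls depends on it. With 100 kb, 500 kb, summits within 100 bp or −log10 q of at least 5, the median was 0.919, 0.995, 0.961 and 0.965, within the interval of the value reported. Alternatives for CpG content, repeats and genes were not run, since they need an mm9 genome or annotation. No paired analysis was possible because only a single library was made from either genotype. At a median of 17 fragments, the counting interval of a ratio spans more than the differences seen at most peaks.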

Other observations

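Chromosome X, which the autosomal rule leaves out, held 12 peaks that met every other condition, of 115 shared narrow X peaks without a direct call (10.4%, 5.51 to 17.5, against 1.40%, 1.17 to 1.67, on the autosomes). Isolation asks for no other summit within 200 kb, so this share also depends on how densely peaks lie. Of 18160 Tet2+/+ peaks, 17882 were autosomal, so few lay on X or Y. The number of isolated peaks per length of X was not worked out, and no enrichment on X is read from the share. The 12 X peaks had a median ratio of Tet2-/- to Tet2+/+ coverage of 0.996, with a range of 0.678 to 1.23. Their median summit had 14.5 Tet2+/+ and 17.5 Tet2-/- fragments. On chromosome Y none of 61 shared narrow peaks without a direct call was isolated, which allows a share of up to 4.92%. A further 10 isolated shared autosomal peaks were 600 bp or wider.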
